A study of Homo sapiens with 4 samples.

Results

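Binding of Myc-tagged TCF3 was described from the peak list of its chromatin immunoprecipitation in DU145, a long-established line of human prostate cancer cells. Every row of that list with a chromosome, a start, an end, a strand and a score was taken, which gave 11390 of the 16387 peaks listed for the series. The series holds 4 libraries, of which 2 belong to TCF3: 1 immunoprecipitation through the Myc tag and 1 input, the chromatin before precipitation. Cells of both were DU145 fixed with 1% formaldehyde for 10 min. Peaks stand for the immunoprecipitation, and the input was not analysed here on its own. The vector, promoter and dose of tagged TCF3, and whether the cells were 1 clone, were not stated in the sources used. There was no replicate library, so no value below has an error between replicates and no test of a condition was possible. Wilson 95% intervals cover the counting of peaks, genes or windows only. The list can be incomplete (5 of its lines held no peak, and no score lay between 887 and 280), so genes with no peak in it are not called unbound.

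TCF3 is an E protein, a broadly expressed basic helix-loop-helix (bHLH) transcription factor. E proteins pair with tissue-specific bHLH factors of muscle, nerve and lymphoid lineages, and the pairs bind the E-box, the short DNA word CANNTG. ID proteins bind E proteins but lack the basic region that contacts DNA, so they hold E proteins off their sites. In lymphocytes E proteins are known for driving antigen receptor gene assembly, and in epithelia for repressing adhesion genes.

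To show the DNA at and beside start-site peaks, the 250 bases before the start site are printed for 6 genes whose start-site window shared at least 1 base with a TCF3 peak. Sequences and coordinates are those of RefSeq on GRCh38.p14, 5′ to 3′ on the gene's strand, and capitals mark every CANNTG. OR2AJ1, DRGX and LCE1C held the most E-box words among the named genes whose printed stretch lay outside every annotated gene. ID4, ADAMTS18 and SCGN were picked after their values were seen, to show starts under high-scoring peaks with few or no E-box words.
OR2AJ1, an olfactory receptor gene, chr1:247924639-247924888, + strand, 4 words, peak score 44 at this window: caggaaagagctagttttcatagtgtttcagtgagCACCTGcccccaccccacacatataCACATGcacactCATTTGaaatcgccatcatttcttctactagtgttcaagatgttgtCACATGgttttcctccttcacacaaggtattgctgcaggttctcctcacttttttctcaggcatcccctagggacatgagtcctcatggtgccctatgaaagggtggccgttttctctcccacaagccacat
DRGX, a homeobox gene of sensory neurons, chr10:49396090-49396339, - strand, 2 words, peak score 190: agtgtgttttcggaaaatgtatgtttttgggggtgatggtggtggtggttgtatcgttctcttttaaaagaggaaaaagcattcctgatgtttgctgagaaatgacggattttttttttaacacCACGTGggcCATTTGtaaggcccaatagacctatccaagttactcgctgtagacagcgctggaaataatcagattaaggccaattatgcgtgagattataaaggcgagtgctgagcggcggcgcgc
LCE1C, a gene of the cornified skin envelope, chr1:152806652-152806901, - strand, 3 words, peak score 36 at this window: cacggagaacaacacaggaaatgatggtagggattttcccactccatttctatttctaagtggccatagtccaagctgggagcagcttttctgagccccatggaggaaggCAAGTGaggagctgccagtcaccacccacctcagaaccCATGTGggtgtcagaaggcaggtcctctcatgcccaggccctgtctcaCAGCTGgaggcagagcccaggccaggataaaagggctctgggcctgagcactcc
ID4, an inhibitor of E proteins, chr6:19837120-19837369, + strand, 1 word, peak score 202: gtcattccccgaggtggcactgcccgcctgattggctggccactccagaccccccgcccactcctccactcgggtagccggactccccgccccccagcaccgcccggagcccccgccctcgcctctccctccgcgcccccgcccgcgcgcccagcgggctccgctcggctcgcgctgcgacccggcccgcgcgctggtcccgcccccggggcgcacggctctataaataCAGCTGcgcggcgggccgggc
ADAMTS18, a secreted metalloproteinase gene, chr16:77435035-77435284, - strand, 1 word, peak score 278: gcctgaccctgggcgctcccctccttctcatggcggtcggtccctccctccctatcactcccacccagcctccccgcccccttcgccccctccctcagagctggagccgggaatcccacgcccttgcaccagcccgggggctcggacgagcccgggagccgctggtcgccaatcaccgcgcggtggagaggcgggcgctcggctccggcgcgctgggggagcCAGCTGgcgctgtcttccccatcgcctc
SCGN, which encodes the calcium-binding protein secretagogin, chr6:25651965-25652214, + strand, no word, peak score 280: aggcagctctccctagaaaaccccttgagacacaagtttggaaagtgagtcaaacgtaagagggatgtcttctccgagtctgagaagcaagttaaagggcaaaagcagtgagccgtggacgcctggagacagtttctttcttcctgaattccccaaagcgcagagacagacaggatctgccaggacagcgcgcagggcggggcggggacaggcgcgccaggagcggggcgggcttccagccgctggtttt
The peaks covered 102 of the 250 printed bases of OR2AJ1 and 85 of those of DRGX, and none of the marked words of either gene lay inside its peak. In LCE1C the peak covered 234 bases and all 3 words, and in ID4, ADAMTS18 and SCGN it covered all 250 bases. The windows with most E-box words had a GC content of 47.3% for OR2AJ1, 45.7% for DRGX and 57.7% for LCE1C, all below the median of 62.3% over all windows. The windows of ID4 and ADAMTS18, at 76.3% and 73.0% GC, each held a single CAGCTG, and that of SCGN, at 60.7%, held no E-box. The score is the authors' own value and how it was defined was not stated in the sources used.

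Over all genes, start-site windows with a peak held a CANNTG less often than windows without one. A window ran from 250 bases before to 50 bases after a start site and was counted when it shared at least 1 bp with a peak. Of 22132 windows of protein-coding genes, 3017 did so (13.6%, Wilson 95% interval 13.2 to 14.1%). CANNTG was found in 54.1% of the windows with a peak, 66.8% of those without and 65.1% of all, a difference of -12.7 percentage points (95% interval -14.6 to -10.8). Words were searched on both strands, and every other E-box word below also matches that pattern. The word CAGCTG stood in 15.5% of windows with a peak and 18.4% of those without, against 18.0% of all windows (-2.92 points, -4.29 to -1.48). CAGGTG or its complement CACCTG, a word known as bound by E proteins, stood in 20.2% and 19.95%, with 19.98% of all windows (0.20 points, -1.31 to 1.77). CAGATG or CATCTG was in 6.99% and 13.0% (12.2% of all), CACGTG in 9.08% and 8.22% (8.34% of all), and CATATG in 0.928% and 2.20% (2.03% of all). Words made of the same letters in another order were in 19.7% and 19.4% for CTGCAG (19.5% of all), and in 13.7% and 11.8% for GGTGCA or TGCACC (12.1% of all). These counts concern 300 bases at a start site only, and say nothing of the rest of each peak or of what the factor contacts.

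The windows with a peak were GC-rich. Their median GC content was 71.7% against 61% for windows without a peak, and their median ratio of observed to expected CpG, a measure of CpG islands, was 0.868 against 0.700. A peak lay over 1.28% of windows under 40% GC (18 of 1401), over 9.53% between 60 and 65% (346 of 3630), over 24.4% between 70 and 75% (724 of 2972) and over 47.3% at 80% or more (358 of 757). The share rose at every step of GC content, and the Wilson intervals of neighbouring bands did not overlap. Median scores in the 8 bands lay between 69 and 81, with 79 in the lowest band.

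**Figure D1:**
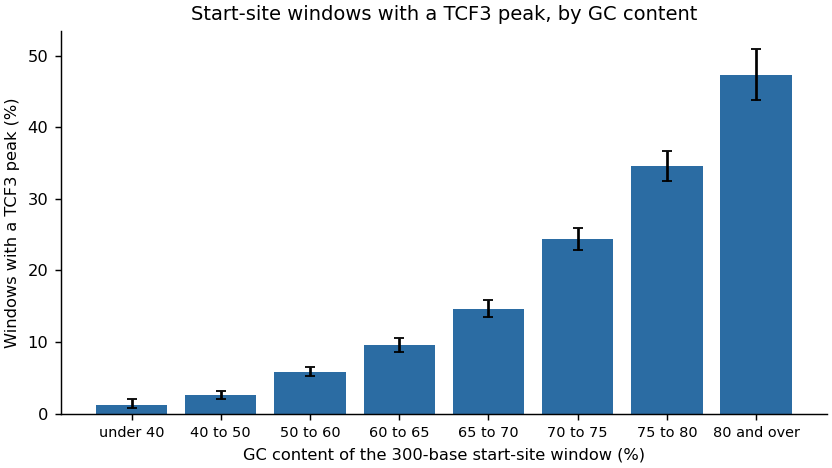
Share of protein-coding start-site windows with a TCF3 peak (y axis, %) in bands of the window's GC content (x axis, %), with Wilson 95% intervals as bars. The share climbs from 1.28% under 40% GC to 47.3% at 80% GC or more.

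Within bands of GC content the CANNTG shares of windows with and without a peak lay closer together than over all windows. Between 60 and 70% GC, CANNTG was in 61.4% of 863 windows with a peak and in 63.5% of 6291 without (-2.07 points, 95% interval -5.57 to 1.33). At 70% GC and over it was in 46.4% of 1773 and in 52.8% of 3955 (-6.43 points, -9.21 to -3.63). CAGGTG or CACCTG differed by 0.26 points (-2.60 to 3.34) and -1.47 points (-3.63 to 0.77) in the same bands. Under 50% GC the difference for CANNTG was -9.08 points (-19.2 to -0.48) over 93 windows with a peak. Only GGTGCA or TGCACC, one of the reordered words, had an interval wholly above 0 in a band (50 to 60% GC, 4.15 points, 0.09 to 9.04), among 8 words and 4 bands. By score, CANNTG was in 56.0% of windows under peaks with scores of 35 to 60, in 51.7% for 61 to under 110 and in 55.9% for 110 and over.

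**Figure D2:**
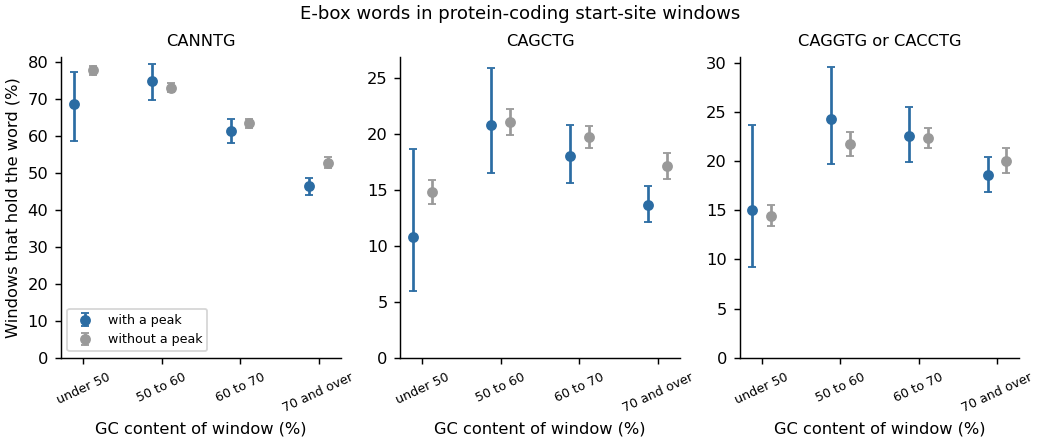
Share of start-site windows that hold an E-box word (y axis, %) by GC content of the window (x axis, %), in 3 panels for CANNTG, for CAGCTG and for the word CAGGTG with its complement, with a TCF3 peak (blue) and without (grey). Points are shares with Wilson 95% intervals, and at 70% GC and over the blue points for CANNTG and CAGCTG lie below the grey ones.

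The E proteins and their ID inhibitors were examined gene by gene. TCF12, an E protein gene (chromosome 15, 56918090 to 57291310), had a TCF3 peak of 2045 bp and score 154 across its start, from 56917768 to 56919813, with the midpoint 146 bp downstream of the nearest start site. That score was above those of 92.3% of the peaks. A narrow peak of 361 bp with score 41 lay deeper in the same gene. TCF4, the other E protein gene (chromosome 18, 55222185 to 55635957), has 10 listed start sites, and a peak with score 44 had its midpoint 77 bp downstream of the nearest of them. Another, with score 61, lay inside the gene at an offset of -30263 bp, upstream of its nearest start site. The TCF3 gene itself (chromosome 19, 1609292 to 1652615) held peaks with scores 47 and 44, 33078 and 31420 bp downstream of its start site, and none at the start. A peak with score 143 lay 16832 bp outside that gene. Of the 3 E protein genes, TCF12 and TCF4 thus had a peak at a start site, with scores of 154 and 44.

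ID4 (chromosome 6, 19837370 to 19842197) had the highest score of the ID genes, 202, above those of 96.8% of peaks. That peak was 2272 bp wide, ran from 19836936 to 19839208 and covered the printed stretch, with its midpoint 702 bp downstream of the start. ID2 (chromosome 2, 8682056 to 8684461) had a peak with score 99 whose midpoint lay 1034 bp beyond the gene and one with score 44 at 5250 bp before it. The nearest peak to ID1 was 31293 bp from the gene, with score 43, and that to ID3 was 184133 bp away, with score 75. The 4 inhibitor genes thus split into ID4 with a wide peak over its start, ID2 with peaks beside the gene, and ID1 and ID3 with none within 5 kb.

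Peaks at start sites lay mostly downstream of them. Of the 10716 peaks on chromosomes with listed start sites (chromosome 8 had none in the table used here), 3198 had their midpoint within 1 kb of the start of a protein-coding gene (29.8%, 29.0 to 30.7%). Their median score was 70 and their median width 754.5 bp. Of these, 2481 lay downstream and 717 upstream of the nearest start, so 77.6% were on the transcribed side (76.1 to 79.0%), with a median offset of 250 bp. For scores over 99 the downstream share was 74.5%. The fullest stretch was 250 to 500 bp downstream with 1104 peaks, against 131 peaks 250 to 500 bp upstream. Peaks in that fullest stretch were narrower (median 631.5 bp) than those just before the start (911 bp in the 250 bp upstream). A further 980 peaks (9.15%) lay 1 to 5 kb from a start, 2395 (22.3%) deeper inside a gene and 4143 (38.7%) between genes, with median scores of 58.5, 53 and 61.

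**Figure D3:**
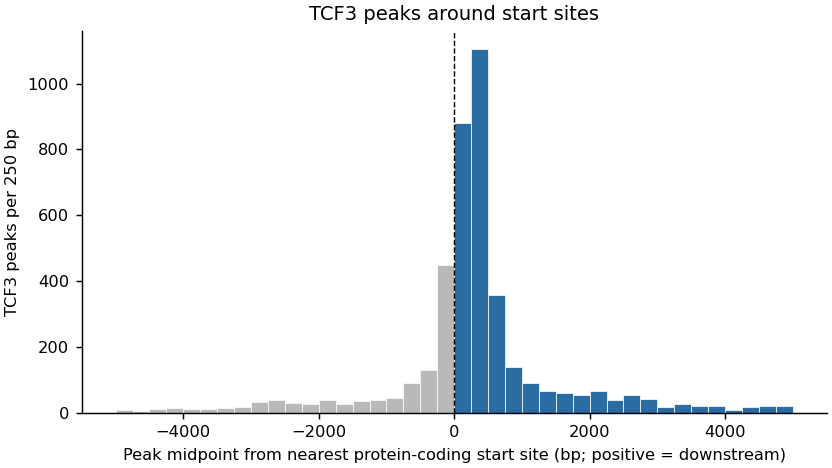
Number of TCF3 peaks (y axis) by distance of the peak midpoint from the nearest protein-coding start site (x axis, bp, in steps of 250 bp, positive downstream). Blue bars are downstream and grey bars upstream, and the highest bar is 250 to 500 bp downstream with 1104 peaks.

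Among genes with start sites over 1 kb apart, 568 of 2360 had a peak over a start-site window. In 535 of these 568 (94.2%) some but not all of the listed starts had one, and in 33 every start did. The highest start-site peaks belonged to TAF11L3, a member of a repeated gene family (1650), and to 7 genes with the same score of 280. These were ADCYAP1, which encodes a neuropeptide, KCTD8, which encodes a GABA-B receptor auxiliary subunit, the homeobox gene NKX2-8, POM121L12, RUNX2, the regulator of bone formation, SCGN and ZBTB14. ADAMTS18 (278) and PLD5 (273) followed. Of the 10, NKX2-8 had the widest peak, 5125 bp, and TAF11L3 the narrowest, 595 bp. Long non-coding RNA genes had a peak over a start-site window in 1042 of 11383 cases (9.15%), against 16.2% of protein-coding genes, with median scores of 76 and 78.

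Scores fell on a ladder of repeated values. The 11330 peaks on chromosomes 1 to 22 and X had 217 different scores, yet the 15 commonest held 7537 peaks (66.5%). The score 36 alone was shared by 1529 peaks, 44 by 1150 and 52 by 924. Wider peaks had higher scores, with a median of 51 for the 2941 peaks up to 500 bp and 99 for the 764 over 2000 bp. Genes with tied scores therefore have no order among them.

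**Figure D4:**
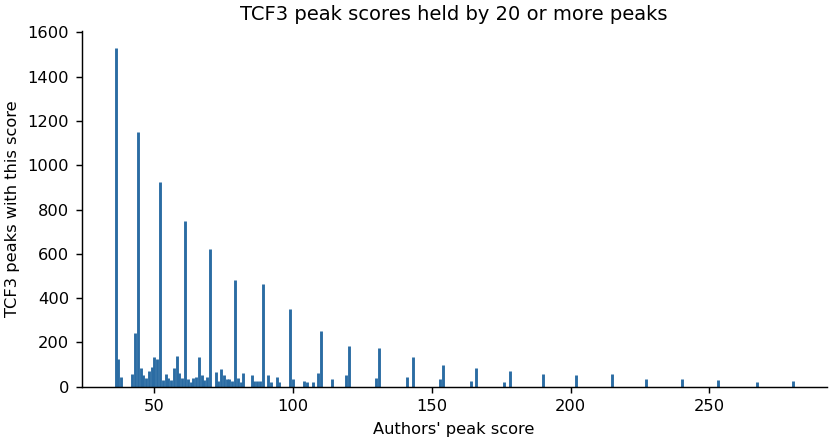
Number of TCF3 peaks (y axis) at each of the authors' scores (x axis) that 20 or more peaks share, up to a score of 280. The spikes at 36, 44, 52, 61 and 70 hold 1529, 1150, 924, 749 and 623 peaks.

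For gene lists, a gene was counted when a peak midpoint lay within 5 kb of either end. This held for 5689 of 19974 protein-coding genes (28.5%, 27.9 to 29.1%), with a median highest score of 70, and the peaks used numbered 5532. A peak at a start site inside a gene, more than 5 kb from both ends, was left out of these counts. RBPJ (143) and ROBO1 (120) had such a peak and were not counted within 5 kb. Below, that 28.5% is the background for counts within 5 kb, and 16.2% is the background for genes with a peak over a start-site window (2562 of 15812 genes with a listed start). The start-site share of all genes at a list's GC content, averaged over its members' GC bands, is given beside some start-site counts. No list was tested, and neighbouring members can share a peak.

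Tissue-specific bHLH genes, which encode the dimer partners of E proteins, had a peak in 31 of 47 cases (66.0%), with a median highest score of 70, the same as over all genes. BHLHE22, of neurons, scored highest at 253. It was followed by ASCL4 (190), and by FERD3L, the oligodendrocyte gene OLIG1 and the mesodermal gene TWIST1 (each 178). The proneural genes NEUROG2 (94), ATOH1 (70), NEUROG1 (52) and NEUROD1 (36) and the muscle genes MYF6 (52), MYF5 and MYOD1 (both 44) had one too. The related genes NEUROD2, NEUROD4, NEUROD6 and ASCL2 and the muscle gene MYOG had no listed peak within 5 kb of an end. Over a start-site window the count was 9 of 34 (26.5%), against 13.8% at the list's GC content. The list's 40 peaks were wide, with a median of 1251.5 bp compared with 718 bp over the whole set. Where a partner had a peak within 5 kb of a start, it lay downstream in 16 of 19 genes, and the median offset was 569 bp. Over all protein-coding genes it lay downstream in 2916 of 4062, with a median offset of 250 bp, so a downstream position was general. HES and HEY repressors, some of them targets of Notch signalling, were listed with the related bHLH genes BHLHE40, BHLHE41 and HELT. They had peaks at 6 of 13 genes, of which only BHLHE41 (79) scored above the median of 70 over all genes and HES1 scored 36. They had a peak over 1 of 12 start-site windows. Their difference from all genes, 17.7 points, was -4.88 within 1 kb of gene ends and -8.99 with the higher-ranked 50% of peaks, where that of the bHLH partners was 21.6 against 37.5.

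Several families of developmental transcription factors had larger shares than all genes. Homeobox genes outside the HOX clusters had one in 99 of 136 cases (72.8%, 64.8 to 79.6%), from 191 distinct peaks, led by NKX2-8 (280), the motor neuron gene ISL1 (240), the hindlimb gene PITX1 (202) and DRGX (190). At start-site windows 51 of 95 had one (53.7%), against 19.1% at their GC content. Forkhead genes had peaks in 28 of 46 cases, with the ovarian regulator FOXL2 (240), FOXB2 (227), FOXN3 (202) and FOXQ1 (178) highest, and at 17 of 35 windows (48.6% against 21.2%). SOX genes did so in 16 of 19 cases, led by SOX11 (253), with SOX1, SOX14 and SOX4 at 120 each and the stem cell factor SOX2 at 110. T-box genes did in 13 of 17, led by the heart and forelimb gene TBX5 (240), TBX20 (190) and TBX2 (141). The T-box difference from all genes, 48.0 points, was 9.15 points within 1 kb of gene ends and 18.6 with the higher-ranked 50% of peaks. PAX genes had peaks in 6 of 9 cases, PAX9 (164) highest, but within 1 kb of a gene end their share fell 9.15 points below that of all genes. POU genes had them in 8 of 15 cases (30.1 to 75.2%), GATA genes in 3 of 6 (18.8 to 81.2%) and KLF and SP genes in 12 of 27 (27.6 to 62.7%).

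HOX genes, which set position along the body axis, had a peak in 27 of 39 cases (69.2%). The 4 clusters differed in count: 10 of 11 HOXA genes from 16 peaks, 6 of 10 HOXB genes from 6, 7 of 9 HOXC genes from 8 and 4 of 9 HOXD genes from 4. The highest scores were 120 in HOXA (HOXA13, HOXA2, HOXA3 and HOXA9), 99 in HOXC (HOXC13), 79 in HOXB (HOXB2) and 58 in HOXD (HOXD13). HOXA3 alone had 7 peaks within 5 kb of its ends. Whether the clusters differ was not tested. The difference of HOX genes from all genes, 40.7 points, was 20.8 points within 1 kb of gene ends, 19.2 with the higher-ranked 50% of peaks and 18.2 without megabase bins that hold 20 or more peaks.

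Signalling genes were read by role. In the BMP pathway, SMADs and antagonists had peaks in 16 of 22 cases (72.7%, 51.8 to 86.8%), led by TWSG1 (141), which binds BMPs outside the cell, the signal transducers SMAD5 (131) and SMAD1 (114), and the antagonist GREM1 (110). Their start-site windows had a peak in 10 of 18 cases (55.6%), against 29.8% at their high GC content. Ligands of the TGF-beta and BMP family had one in 13 of 32 cases, with BMP4 (192), BMP6 (143) and GDF10 (119) highest, and receptors in 5 of 14, with BMPR1A (240) highest. The intervals of the ligand list (25.5 to 57.7%) and of the receptor list (16.3 to 61.2%) include the 28.5% of all genes, and that of the SMADs and antagonists does not. Whether these lists differ from each other was not tested. In the WNT pathway, receptors and coreceptors had peaks in 10 of 18 cases, led by FZD10 (154) and FZD1 (153), ligands in 7 of 19, led by WNT2 (119), and antagonists and targets in 10 of 24, led by AXIN2 (110). Hedgehog genes had them in 8 of 15 cases, with the receptor gene PTCH1 (267), the coreceptor GAS1 (166), the antagonist HHIP (155) and SMO (109) highest, and at 6 of 12 start-site windows. Notch ligands, receptors and cofactors did in 6 of 18 cases, RFNG (164) highest, and FGF ligands and receptors in 9 of 26, FGF2 (99) highest, both near the background.

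Adhesion and guidance genes included the densest list. Clustered protocadherins, the combinatorial adhesion genes of neurons, had a peak within 5 kb in 48 of 53 cases (90.6%), from 64 peaks, with PCDHGA7 and PCDHGB4 (both 253) highest. Their start-site windows had one in 5 of 47 cases (10.6%). The 5 windows with a peak had a GC content between 34.3% (PCDHA2) and 50% (PCDHGB6). Over all protein-coding genes, a peak lay over 1.28% of windows under 40% GC, 2.56% at 40 to 50% and 5.85% at 50 to 60%. The GC content of the list's other windows is not given here. Of the 47 genes, 43 had a peak within 5 kb of the start. In 39 of these 43 the nearest one lay downstream, against 2916 of 4062 over all protein-coding genes, and whether these shares differ was not tested. The median offset over the 43 was 1682 bp, against 250 bp over the 4062 protein-coding genes with a peak within 5 kb of a start. Within 1 kb of gene ends the list's difference from all genes was 15.6 points, against 62.1 within 5 kb. The alpha cluster had peaks at 13 of 15 genes, beta at 15 of 16 and gamma at 20 of 22. The gene models of the gamma cluster overlap and end at the same base, so PCDHGA1, PCDHGA2 and PCDHGA3, with 31, 30 and 30 peaks along their length, share peaks. Ephrins and EPH receptors had peaks in 11 of 22 cases, with EPHA7 (264), EPHA6 (178) and EPHA5 (130) highest, and SLIT, ROBO and netrin genes in 8 of 19, with SLIT2 (178) and UNC5C (143) highest. Potassium channels did in 40 of 95 cases, KCNJ2 (225) highest, and glutamate and GABA receptors in 20 of 49, GABRG3 (280) and GABRB2 (267) highest. Semaphorins and plexins, at 10 of 31, and calcium and sodium channels, at 10 of 40, were near the background.

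Epithelial genes gave mixed counts. Transcription factors of epithelial-mesenchymal transition had a peak in 9 of 10 cases, TWIST1 (178) and GSC (166) highest, with ZEB2 at 78, ZEB1 at 61 and SNAI1 at 44. The list of epithelial junction genes also holds regulators of epithelial cells, the GRHL, OVOL and ESRP genes. It had peaks in 14 of 29 cases, with the regulators GRHL1 (190) and GRHL2 (105), desmoplakin DSP (109) and the splicing factor ESRP1 (104) highest. No share was computed for the junction genes alone. E-cadherin, CDH1, a known target of repression by E proteins, had no listed peak in the gene or within 5 kb of it. Genes of the epidermal differentiation complex had peaks in 37 of 60 cases, S100A10 (256) and LCE2A (250) highest, and keratin-associated proteins of hair in 48 of 94, KRTAP13-3 and KRTAP13-4 (both 227) highest. The start-site windows of the latter held a peak in 26 of 80 cases (32.5%), against 4.65% at their low GC content of 42.7%. Leaving out megabase bins with 20 or more peaks turned the difference from all genes negative for clustered protocadherins (-25.4 points), the epidermal differentiation complex (-23.8) and keratin-associated proteins (-23.3) as those bins hold their peaks. It did the same for POTE and TAF11L genes (-10.0), 18 of 26 with a peak otherwise. Prostate luminal and basal markers had a peak within 5 kb of a gene end in 4 of 23 cases, STEAP2 (120) highest. FKBP5, not among these 4, had a peak with score 145 over a start site inside the gene.

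**Figure D5:**
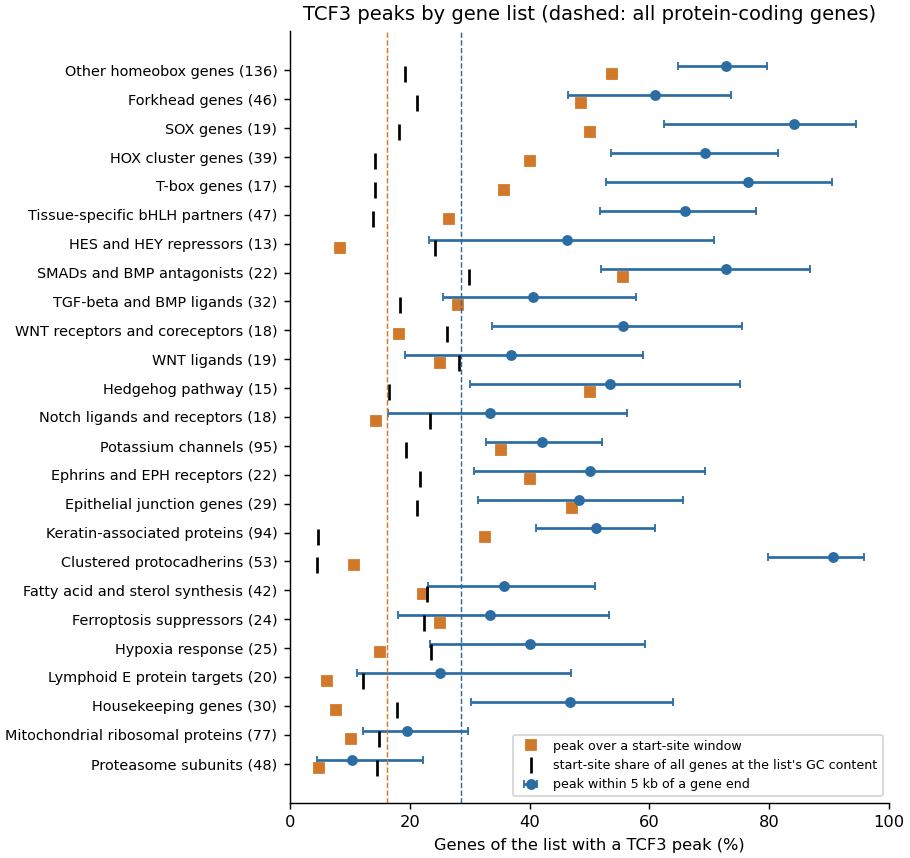
Share of genes with a TCF3 peak (x axis, %) for 25 gene lists (y axis, number of genes in brackets): within 5 kb of a gene end (blue circles, Wilson 95% intervals) and over a start-site window (orange squares), with the start-site share of all genes at the list's GC content (black ticks). Dashed lines are all protein-coding genes at 28.5% (blue) and 16.2% (orange), and homeobox, forkhead and SOX genes lie right of both lines.

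Cell cycle and metabolic genes are given by count, with the 28.5% of all protein-coding genes within 5 kb as background. Whether their shares differ from that background or from each other was not tested. G1 cyclins and kinases had a peak in 7 of 14 cases, CDK6 (131) and CCNE1 (110) highest. Inhibitors of cyclin-dependent kinases, which E proteins are known to activate, did in 5 of 8, with CDKN1A at 76, CDKN1B at 46 and CDKN2B at 44. Of the 5, only CDKN1A scored above the median highest score of 70 over all genes with a peak. The difference of that list from all genes turned negative within 1 kb of a gene end (-7.76 points) and among the higher-ranked 50% of peaks (-4.19 points). Fatty acid and sterol synthesis genes had peaks in 15 of 42 cases, with ELOVL5 and INSIG1 (both 166) highest. The start-site share of that list was 22.2% (8 of 36), against 22.8% at its GC content. Ferroptosis suppressors had peaks in 8 of 24 cases, MBOAT2 (120) and the glutathione synthesis gene GCLC (99) highest and GPX4 at 38. Ferroptosis promoters had them in 8 of 23, GLS2 (99) highest, and both shares lay near the background. Hypoxia response genes did in 10 of 25 cases, VEGFA (240) highest.

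Genes that every cell uses were read at their ends and at their start-site windows. Housekeeping genes had one within 5 kb in 14 of 30 cases, ACTB (202) and SDHA (178) highest, but over a start-site window in 2 of 26 (7.69%), against 17.9% at their GC content. Proteasome genes had peaks within 5 kb in 5 of 48 cases and at 2 of 42 windows (4.76%, against 14.5% at their GC content), and mitochondrial ribosomal protein genes in 15 of 77 and at 7 of 69 (10.1% against 14.9%). Cytosolic ribosomal protein genes did so in 18 of 80 cases and at 5 of 63 windows (7.94% against 12.4%). For housekeeping genes the share was 18.2 points above that of all genes within 5 kb of gene ends and 9.74 points above within 1 kb. In the start-site window it was below that of all genes, which were counted in the same window. Why these measures differ was not tested. Lymphoid targets of E proteins had a peak in 5 of 20 cases, the transcription factor genes BCL11B (202), IKZF1 (131), EBF1 (89), FOXO1 (59) and GFI1 (51). RAG1 and CD79A, of antigen receptor assembly and signalling, had no listed peak in the gene or within 5 kb of it. PAX5, of B cell identity, had none within 5 kb of its ends but 4 along the gene. Olfactory receptors, at 66 of 392 (16.8%), and interleukins and their receptors, at 14 of 85 (16.5%), lay below the background. Of 61 lists, 48 had a share above that of all genes within 5 kb, and 36 of the 61 lay above their GC content's share at start sites.

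Peaks were also counted along gene bodies, without scaling to gene length. Counting each gene with 5 kb on either side, 6566 genes had a peak, 1599 had 2 or more and 33 had 10 or more, of which 24 were clustered protocadherins. Outside those clusters the most peaks lay in WWOX, a very long gene at a fragile site (18 in 1113 kb), PTPRN2 (17 in 1049 kb), TSPEAR (17 in 214 kb), ASIC2, LDLRAD4 and TMEM132D (14 each). The TSPEAR count includes peaks at the starts of keratin-associated protein genes that lie within it, KRTAP10-1 and KRTAP12-1 among them. A peak lay in or near 55.8% of the 771 genes over 300 kb against 31.0% of the 5658 genes up to 10 kb. Within 5 kb of a gene end the shares were 32.6% and 31.0%. PTPRN2 had none within 5 kb of an end, while CDH4, with 11 peaks, had one of score 215 there.

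Along the genome, the densest megabase was 106000001 to 107000000 of chromosome 14, with 110 peaks of median score 61, in the immunoglobulin heavy chain locus. Among immunoglobulin and T cell receptor segments, 33 of 248 V segments (13.3%), 13 of 32 D segments and 13 of 98 J segments shared a base with a peak. V segment pseudogenes did so in 46 of 190 cases (24.2%), and protein-coding genes, which are longer, in 28.0%. Neighbouring segments can share a peak, and no difference between these shares was tested. Per 100 protein-coding genes there were 124 peaks on chromosome 14, 118 on chromosome 18 and 114 on chromosome 21, against 27.4 on chromosome 19 and 5.90 on chromosome X (50 peaks for 848 genes). These rates depend on the number of genes, and peaks were not counted per length of chromosome. Chromosome 19 had 397 peaks for 1451 genes, and chromosome 18 had 319 for 270. The 750 peaks of chromosome 14 include the 110 of the densest megabase and 59 of the megabase before it. Copy number and the share of mappable sequence were not known from the list, and their part in these differences was not tested.

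MicroRNA genes shared a base with a peak in 120 of 1911 cases (6.28%), with a median score of 69.5, and mature sequences were matched for 107 of them. Some well-known families were chosen after the counts were seen. Their mature sequences, with bases 2 to 8 (the seed, which pairs with target RNAs) in capitals, come from RefSeq on GRCh38.p14.
hsa-miR-9-5p, of neural progenitors, gene MIR9-1, score 120: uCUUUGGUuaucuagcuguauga
hsa-miR-203a-3p, of skin epithelium, gene MIR203A, score 131: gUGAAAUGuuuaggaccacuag
hsa-miR-193a-3p, gene MIR193A, score 110: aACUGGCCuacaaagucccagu
hsa-let-7i-5p, of the let-7 family of differentiated cells, gene MIRLET7I, score 89: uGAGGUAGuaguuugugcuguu
hsa-miR-34b-5p, of a family that p53 induces, gene MIR34B, score 79: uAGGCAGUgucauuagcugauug
No pair of these shares a seed. A peak lay over 1 of 3 miR-9 genes, 1 of 3 miR-34 genes, 1 of 11 let-7 genes, both miR-203 genes, which overlap on opposite strands, and none of the 5 genes of the miR-200 and miR-141 group that keeps epithelial identity. Among the other families counted, 1 of 2 miR-193 genes, 2 of 3 miR-124 genes and 2 of 3 miR-219 genes had one. No gene of the miR-129, miR-137 or miR-10 and miR-196 families did. The peak over MIR203A and MIR203B ran from 104116030 to 104119341 on chromosome 14, and that over MIR9-1 from 156420072 to 156421780 on chromosome 1. Among other small RNA genes a peak lay over 3 of 443 tRNA genes (0.677%), 1 of 154 snRNA genes (0.649%), 39 of 1196 snoRNA genes (3.26%) and 4 of 49 rRNA genes, the last with a median score of 5032. A short gene offers fewer bases to share with a peak, so these shares and that of protein-coding genes are not on the same footing.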

How the data were processed

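Peaks of 1 immunoprecipitation library (group TCF3 Myc ChIP) were used as the authors deposited them, with a score per peak in a unit that the file header calls only a peak score. The build is hg38, per the submitters' processing notes. The aligner, peak caller, threshold, read depth and how the input entered were not stated in the sources used. The list was matched to its library by name. Gene positions, start sites and sequences came from RefSeq on GRCh38.p14 (same primary chromosome coordinates as hg38). Start-site windows were those of the table used here, which holds none for chromosome 8 and several for some genes. Peaks outside chromosomes 1 to 22 and X (60) were left out. The 24 hand-written lists and 37 symbol families, the members and the rules were chosen with earlier results of these data known. The rule named TCF3, the E protein and ID genes, up to 4 highest-scoring members per list, the 10 genes with most peaks and the 10 highest start-site peaks. Further genes named inside a list were chosen after their values were seen. Printed stretches also had to lie outside annotated genes, a condition added afterwards. Since there was 1 library, no test was made. Shares have Wilson 95% intervals, and differences of shares Newcombe intervals. The overlap code was tested on simulated data. Python 3.11.15, numpy 2.4.6, pandas 2.3.3 and matplotlib 3.10.9 were used. Some members of the lists are not reported here by name. Alternatives are given at the end.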

Additional observations from a re-analysis of the deposited data

Results flagged for a closer look

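Outside the comparisons, 16 TCF3 peaks lay on unplaced or unlocalized sequence, and the highest of their scores was 19871, above the 8401 of the highest-scoring peak on chromosomes 1 to 22 and X. They stand here because they are signal on sequence that no comparison used.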

How the results depend on the processing

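The number of genes with a TCF3 peak moved from 5689 to 10574 with 50 kb around gene ends and to 3333 with the higher-ranked 50% of peaks. Within 1 kb (4047), with any base of the peak counted (5784), without the top 1% of scores (5667) and without megabase bins of 20 or more peaks (5080) it stayed within 1.5 times. The share of peaks within 1 kb of a protein-coding start moved from 29.8% to 35.9% with the higher-ranked 50% of peaks, 31.6% without the dense bins and 35.7% with the starts of long non-coding RNA genes added. The share of start-site windows with a peak moved from 13.6% to 18.6% for midpoints within 1 kb, 8.98% for the higher-ranked 50% and 6.59% when the peak had to cover the whole window. Genes with 2 or more peaks fell from 1599 to 891 within gene bodies alone and to 556 with the higher-ranked 50%. The differences for CANNTG and CAGCTG stayed within their intervals under both alternatives, and so did that for CAGGTG or CACCTG, whose interval includes 0 (-0.95 with the higher-ranked 50% of peaks and -0.17 with the whole window). The number of lists above all genes was 41 within 1 kb, 39 with the higher-ranked 50% and 41 without dense bins, against 48. From above to below all genes went 8 lists within 1 kb (1 went the other way), 9 with the higher-ranked 50% and 7 without dense bins. Among these, the lists whose interval lay wholly above all genes before were the CDK inhibitors within 1 kb (-7.76 points) and with the higher-ranked 50% (-4.19), PAX genes within 1 kb (-9.15), and without dense bins the clustered protocadherins (-25.4), keratin-associated proteins (-23.3), epidermal differentiation complex (-23.8) and POTE and TAF11L genes (-10.0). HES and HEY, GATA, Notch, FGF, WNT ligand, semaphorin, integrin, collagen, keratin, histone and ferroptosis suppressor lists also went below under 1 or 2 of the 3 settings or, for keratins, all 3. The protocadherin, keratin-associated, epidermal and POTE lists lose the bins that hold their peaks, and for the others the cause was not tested. The downstream share of peaks near starts, an alternative added after seeing the data, was 76.9% with the higher-ranked 50% and 80.6% for genes with 1 listed start site. No paired analysis was possible because each group has 1 library. Without counts of reads, depth limits which peaks could be called to an unknown extent.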
